A study of Sus scrofa with 8 samples.

Results

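Plasma carrier and inhibitor proteins are made in bulk by hepatocytes, pass through the endoplasmic reticulum and Golgi, and are released into the blood. Albumin keeps plasma volume and carries fatty acids, bilirubin and drugs, and several other members carry a cargo such as iron, thyroid hormone, vitamin D or cortisol. The inhibitors of the set hold serine proteases in check. The messenger of albumin is among the most abundant of the liver.

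The genes described here are those with the symbols ALB, TTR, TF, AMBP, GC, SERPINA1, SERPINA6, VTN, A1BG and ITIH2, taken by symbol alone from the table of all libraries. The 10 symbols matched 11 of 18103 gene rows, since TF named 2 genes. All 11 passed the filter on low values.

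Hepatic RNA of male Landrace x Large White pigs was measured by RNAseq of poly-A RNA in 8 libraries, each a pool of equal RNA from 2 pigs. The 4 pools of the initial state came from healthy pigs of 4 months, sampled by biopsy at laparotomy, and the 4 pools of steatosis came from the same animals at 6 months, sampled at euthanasia. Between both samplings the pigs ate a steatotic diet for 2 months. It was low in methionine, restricted in choline and enriched in fructose, cholesterol, sodium cholate and saturated fat from hydrogenated palm and sunflower oil. Per the paper, it also gave less of its energy from protein than the control diet eaten before, and mean energy intake was higher on it. All pigs were fasted overnight and anaesthetised with propofol at both samplings. Age and the way of sampling therefore cannot be told apart from the diet, and a pool hides the difference between its 2 pigs.

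Values are FPKM, fragments per length of transcript and per depth of library, so levels may be compared between genes. The FPKM sum of a library lay between 511863 and 545731, and the depth of all libraries was between 92.0% and 100% of the deepest. In the text, rose and fell mean an adjusted p under 0.05 in limma on log2(FPKM + 0.1), and differentially expressed means an adjusted p under 0.01 with a log2 fold change beyond 1. Over all 13175 genes tested the median log2 fold change was 0.25, 26.7% rose and 2.28% fell, so that rises made up 92.1% of the calls. After scaling each library by its median ratio the median was -0.01, 11.6% rose and 9.74% fell, and rises made up 54.4% of the calls. Upper-quartile scaling gave a median of 0.03 and 62.2% rises. Each fold change below stands against this general shift. Initial pools 1 and 4 stood apart from the other libraries on the second principal component, which held 16.0% of the variance.

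Hepatocyte genes whose products stay in the cell are given for comparison, and they do not show which cells express the members. Of a list of 14 such genes, 13 were found by symbol and tested. Of these, 1 rose and 2, PCK1 and FBP1 of glucose synthesis, fell, while after median-ratio scaling 0 rose and 6 fell. Over all genes tested 26.7% rose and 2.28% fell, and after that scaling 11.6% and 9.74%. The summed level of the 13 hepatocyte genes was 5686 to 8097 FPKM in the initial pools and 4514 to 4700 FPKM in the steatosis pools. The highest sum was that of initial pool 1, and every other pool was at 6118 FPKM or less. Without PCK1 the other 12 summed to 4210.5 to 5642 FPKM and to 3689 to 3951 FPKM. In bulk liver, fewer hepatocytes and less RNA per hepatocyte cannot be told apart. The summed level of 11 macrophage markers was 702 to 978 FPKM in the initial pools and 1738 to 2292 FPKM in steatosis, and 9 of the 11 rose. Without GPNMB, which was at 17.6 to 32.6 FPKM and then at 405 to 1096 FPKM, the other 10 macrophage markers summed to 685 to 955 FPKM and to 1157 to 1333 FPKM. Summed endothelial markers were at 150 to 187 FPKM against 203 to 219 FPKM, with 2 of 9 rising, and stellate cell markers at 64.6 to 198 FPKM against 118 to 320 FPKM, with 3 rising and 1 falling of 9. Of 5 cholangiocyte markers 1 rose, SPP1, which was at 4.16 to 9.64 FPKM in the initial state and 74.4 to 227 FPKM in steatosis. The other 4 overlapped in their sum, with 4.06 to 19.9 FPKM and 7.57 to 18.6 FPKM, against 10.1 to 24.6 FPKM and 93.0 to 234 FPKM for the whole list. The T and NK cell list summed to 32.4 to 54.1 FPKM and to 63.5 to 69.6 FPKM, but only NKG7 of the 7 rose, and the other 6 summed to 21.2 to 39.0 FPKM and to 29.2 to 34.8 FPKM. The 4 red cell genes tested gave no call (HBB fell with the block, adjusted p = 0.0441), with sums of 264 to 1303 FPKM and 138 to 431 FPKM. Skeletal muscle and stomach markers reached 2586 and 1527 FPKM in initial pool 1 and at most 18.9 and 28.8 FPKM in every other pool. The part of these cell types in the results below was not tested.

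Of the 11 genes, 3 rose in steatosis and 0 fell, where 29.0% of all genes tested were called, 26.7% upwards and 2.28% downwards. The genes that rose were TF, its neighbour of the same symbol and ITIH2. None was differentially expressed, a limit that 6.01% of all genes passed upwards and 0.334% downwards. The median log2 fold change of the 11 genes was -0.03, against 0.25 over all genes tested, and 7 of the 11 estimates lay below 0. The groups of pools did not overlap for 3 of the 11 genes, against 32.1% of all genes tested. Among the 586 genes with a mean of at least 100 FPKM, a level chosen after the values were seen, 32.9% rose and 8.70% fell. Without initial pools 1 and 4, an alternative chosen after the values were seen, TF kept its call (log2 fold change 0.66, adjusted p = 0.0367), while ITIH2 (0.28, adjusted p = 0.148) and the second TF gene (0.20, adjusted p = 0.157) did not. With the median-ratio or upper-quartile scaling 0 members rose and 2, VTN and SERPINA1, fell. Over all genes tested 1532 rose and 1283 fell with the median ratio, and 1679 and 1019 with the upper quartile.

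**Figure D1:**
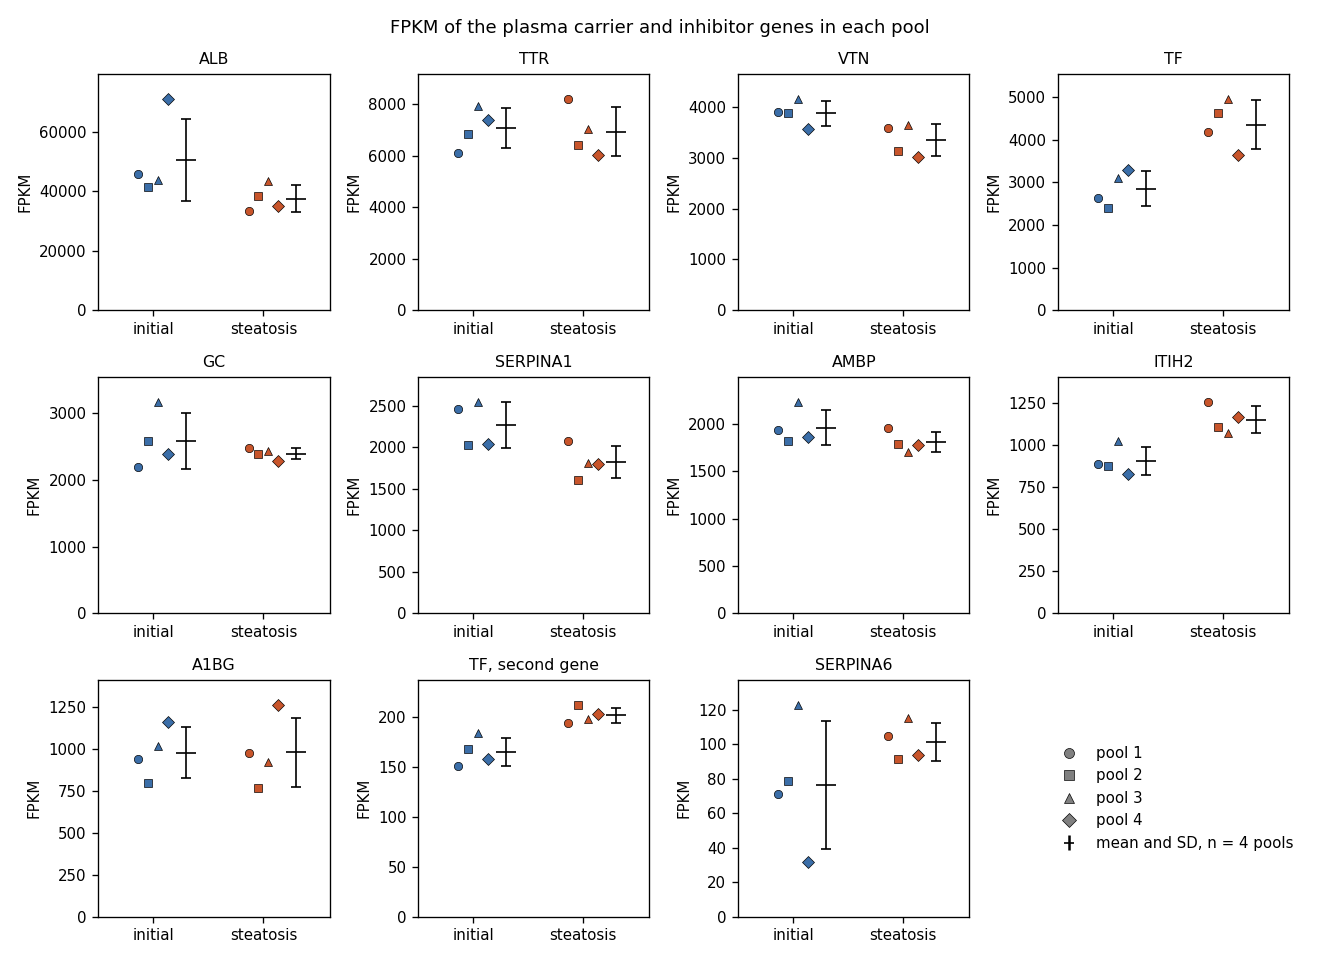
FPKM of each of the 11 genes (y axes, linear from 0) in the 4 initial pools (blue) and the 4 steatosis pools (orange), with a marker shape for each pool number and black bars for the mean and SD of 4 pools. TF, its second gene and ITIH2 show no overlap between groups, and the ALB value of initial pool 4 (71003 FPKM) lies far above the other initial pools.

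ALB encodes albumin, the main protein of plasma and carrier of fatty acids. The gene (ID 396960, chromosome 8, 69643427 to 69663152 on Sscrofa11.1) held the highest FPKM of all genes in each of the 8 libraries. The level was between 1.81 and 2.67 times that of APOC3, an apolipoprotein and the next gene in every library. In initial pools 1 to 4 ALB was at 45743, 41268, 43639 and 71003 FPKM, and in steatosis pools 1 to 4 it was at 33168, 38461, 43509 and 34856 FPKM. Each steatosis pool was lower than the initial pool of the same number, by very little in pool 3, and the groups overlapped through steatosis pool 3. The mean was 50413 ± 13848 FPKM in the initial state and 37499 ± 4575 FPKM in steatosis (SD, n = 4 pools each). The log2 fold change was -0.40 (SE 0.20, 95% interval -0.86 to 0.06), which did not pass the test (adjusted p = 0.168, limma). The two-sided exact permutation test of the means gave p = 0.0571, where the smallest p that 4 pools against 4 allow is 0.0286. Without initial pool 4 the log2 fold change was -0.22. With all pools and median-ratio scaling it was -0.67 (adjusted p = 0.146, limma).

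ALB shares its chromosome region with relatives. The next gene at a distance of 14.5 kb is AFP, alpha-fetoprotein, the albumin of the fetus, and behind it lies AFM, afamin, a carrier of vitamin E. AFP was hardly expressed, with 0.14, 0.24, 0.19 and 0.25 FPKM in initial pools 1 to 4 and 0.35, 0.37, 0.37 and 0.43 FPKM in steatosis pools 1 to 4. At this low level AFP rose by 0.67 on the log2 scale (SE 0.22, adjusted p = 0.0461, limma), and its groups did not overlap, but in the fit blocked by pool number it lost its call (adjusted p = 0.0714). AFM was at 103 to 167 FPKM in the initial state and 118 to 162 FPKM in steatosis, with a log2 fold change of 0.02 (adjusted p = 0.931).

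GC, the vitamin D binding protein and a further member of the albumin family, lies on the same chromosome 1283 kb from ALB (ID 448964, 68326293 to 68360262). It was at 2187, 2581, 3161 and 2379 FPKM in initial pools 1 to 4 and at 2468, 2391, 2423 and 2277 FPKM in steatosis pools 1 to 4. The steatosis pools lay close together inside the range of the initial pools. The coefficient of variation was 16.3% in the initial state and 3.41% in steatosis, and no test of this spread was made. The means were 2577 ± 421 and 2390 ± 81.5 FPKM (SD, n = 4), with a log2 fold change of -0.10 (SE 0.13, interval -0.38 to 0.19, adjusted p = 0.593).

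TTR encodes transthyretin, which carries thyroxine and, bound to RBP4, vitamin A. The gene (ID 397419, chromosome 6, 115496338 to 115503974) was the second most abundant of the set and held rank 4 to 8 among all genes. In initial pools 1 to 4 TTR was at 6121, 6836, 7940 and 7387 FPKM, and in steatosis pools 1 to 4 at 8203, 6408, 7049 and 6029 FPKM. High and low pools occurred in both groups, and the pool with the highest value was steatosis pool 1. The means of 7071 ± 777 and 6922 ± 952 FPKM gave a log2 fold change of -0.03 (SE 0.14, interval -0.35 to 0.28, adjusted p = 0.872, limma). The retinol carrier RBP4, its partner in plasma, was at 3017 to 3292 FPKM in the initial state and 2575 to 3024 FPKM in steatosis, with a log2 fold change of -0.15 (adjusted p = 0.279). SERPINA7, the thyroxine-binding globulin, was at 40.7 to 47.9 FPKM in the initial state and at 27.3 to 47.7 FPKM in steatosis, with a log2 fold change of -0.32 (adjusted p = 0.149), and after median-ratio scaling it fell by 0.60 (adjusted p = 0.0452).

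TF encodes transferrin, which carries iron in the blood. It was the member with the largest rise on the log2 scale. The gene (ID 396996, chromosome 13, 74930655 to 74970599) was at 2634, 2400, 3107 and 3282 FPKM in initial pools 1 to 4. In steatosis pools 1 to 4 it was at 4194, 4628, 4959 and 3644 FPKM. Every steatosis pool lay above every initial pool, with the smallest difference within a pool number in pool 4. The means were 2856 ± 409 and 4356 ± 569 FPKM (SD, n = 4), a fold change of 1.53 (95% interval 1.22 to 1.91). On the log2 scale TF rose by 0.61 (SE 0.14, adjusted p = 0.0118, limma), which is 0.36 above the median of all genes tested. The two-sided exact permutation test gave an unadjusted p = 0.0286, the smallest possible, which restates that the groups did not overlap. As each library was left out, the log2 fold change ran from 0.53 to 0.69 and the adjusted p from 0.0124 to 0.0370. Among all genes the rank of TF went from 24 to 31 in the initial pools to 10 to 16 in the steatosis pools. With the median-ratio scaling the log2 fold change was 0.34 (adjusted p = 0.248) and with the upper-quartile scaling 0.38 (adjusted p = 0.171), so the call of TF ended with either.

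A second gene of the symbol TF (ID 396845, chromosome 13, 74862502 to 74907059) lies 23.6 kb from the first. RefSeq lists for it the synonym PICA, the name of the inhibitor of carbonic anhydrase, a transferrin relative of pig plasma. It was at 151, 168, 184 and 158 FPKM in initial pools 1 to 4 and at 194, 212, 199 and 204 FPKM in steatosis pools 1 to 4. The groups did not overlap, and the means were 165 ± 14.3 and 202 ± 7.69 FPKM (SD, n = 4; two-sided exact permutation p = 0.0286). The gene rose by 0.29 on the log2 scale (SE 0.09, adjusted p = 0.0324, limma), close to the median of all genes, and after median-ratio scaling the log2 fold change was 0.02 (adjusted p = 0.902). As each library was left out, the adjusted p ran from 0.0221 to 0.0844 and stayed under 0.05 in 1 of 8 cases. Fragments of related genes could have been divided between both by the authors' estimation, so its values are uncertain. The ratio of the second gene to the first was 0.0483 to 0.0700 in the initial pools and 0.0401 to 0.0559 in the steatosis pools.

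VTN encodes vitronectin, a plasma and matrix protein that binds integrins. The gene (ID 397192, chromosome 12, 44650532 to 44653916) was at 3913, 3878, 4164 and 3567 FPKM in initial pools 1 to 4 and at 3592, 3143, 3658 and 3022 FPKM in steatosis pools 1 to 4. Each steatosis pool was lower than the initial pool of its number, and the groups overlapped through initial pool 4. The means were 3880 ± 245 and 3354 ± 318 FPKM (SD, n = 4), with a log2 fold change of -0.21 (SE 0.11, interval -0.46 to 0.04, adjusted p = 0.177). After median-ratio scaling VTN fell by 0.49 on the log2 scale (adjusted p = 0.0382).

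SERPINA1 encodes alpha-1-antitrypsin, which inhibits neutrophil elastase. The gene (ID 397688, chromosome 7, 115604282 to 115616915) was at 2461, 2029, 2544 and 2040 FPKM in initial pools 1 to 4 and at 2078, 1611, 1817 and 1802 FPKM in steatosis pools 1 to 4. It was lower in 4 of 4 pool numbers, and only steatosis pool 1 reached into the range of the initial pools. The means were 2269 ± 273 and 1827 ± 192 FPKM (SD, n = 4; two-sided exact permutation p = 0.0857). The log2 fold change was -0.31 (SE 0.12, interval -0.59 to -0.03) with an adjusted p of 0.0851, and after median-ratio scaling SERPINA1 fell by 0.58 (adjusted p = 0.0214).

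SERPINA6, 49.7 kb from SERPINA1 in the same serpin cluster (ID 396736, 115535552 to 115554536), encodes the cortisol carrier of plasma. It was the least abundant gene of the set, with 71.3, 78.7, 123 and 31.9 FPKM in initial pools 1 to 4 and 105, 91.6, 115 and 94.0 FPKM in steatosis pools 1 to 4. Initial pool 4 was by far the lowest and initial pool 3 the highest of all libraries, so the groups overlapped widely. The means were 76.1 ± 37.1 and 101 ± 10.9 FPKM (SD, n = 4), with coefficients of variation of 48.8% and 10.7%. The log2 fold change was 0.56 (SE 0.33, interval -0.17 to 1.29, adjusted p = 0.223), and without initial pool 4 it was 0.19. HSD11B1, which regenerates cortisol inside hepatocytes, was at 432 to 577 FPKM in the initial state and 335 to 401 FPKM in steatosis, and it fell by 0.47 on the log2 scale (adjusted p = 0.0141, limma).

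AMBP encodes a precursor that is cut into alpha-1-microglobulin, a carrier of heme, and bikunin, the protease-inhibiting light chain to which ITIH1 and ITIH2 heavy chains are joined. AMBP (ID 397593, chromosome 1, 254683885 to 254703220) was at 1932, 1820, 2230 and 1865 FPKM in initial pools 1 to 4 and at 1958, 1786, 1707 and 1773 FPKM in steatosis pools 1 to 4. The groups overlapped, and pool 1 was the only pool number with a higher value in steatosis. With means of 1962 ± 185 and 1806 ± 107 FPKM (SD, n = 4) the log2 fold change was -0.12 (SE 0.10, interval -0.35 to 0.12, adjusted p = 0.419).

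The heavy chain gene ITIH2 (ID 396937, chromosome 10, 63635206 to 63672200) was at 887, 876, 1025 and 831 FPKM in initial pools 1 to 4 and at 1256, 1109, 1072 and 1165 FPKM in steatosis pools 1 to 4. All steatosis pools were higher than all initial pools, with the smallest distance between the pools numbered 3. The means were 905 ± 83.8 and 1151 ± 80.2 FPKM (SD, n = 4; two-sided exact permutation p = 0.0286). ITIH2 rose by 0.35 on the log2 scale (SE 0.10, fold 1.27, adjusted p = 0.0290, limma), and after median-ratio scaling the log2 fold change was 0.07 (adjusted p = 0.677). As each library was left out, the adjusted p ran from 0.0192 to 0.0747 and stayed under 0.05 in 2 of 8 cases.

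Of the other heavy chain genes, which lie together on chromosome 13, ITIH1 was at 902 to 1477 FPKM in the initial state and 991 to 1041 FPKM in steatosis, with a log2 fold change of -0.25 (adjusted p = 0.219). ITIH3 had a log2 fold change of 0.01 (adjusted p = 0.957) and ITIH4, an acute phase relative that carries no bikunin, one of 0.19 (adjusted p = 0.385). Thus ITIH2 alone among these 4 heavy chain genes passed the test, and the difference between it and the others was not tested. After median-ratio scaling ITIH1 fell by 0.52 (adjusted p = 0.0189) and ITIH2 gave no call.

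A1BG encodes a plasma glycoprotein of the immunoglobulin superfamily. The gene (ID 100516980, chromosome 6, 62935419 to 62939622) was at 940, 796, 1022 and 1164 FPKM in initial pools 1 to 4 and at 976, 771, 922 and 1263 FPKM in steatosis pools 1 to 4. Pool 4 was the highest and pool 2 the lowest in both groups. The means were 981 ± 154 and 983 ± 206 FPKM (SD, n = 4), with a log2 fold change of -0.01 (SE 0.17, interval -0.38 to 0.36, adjusted p = 0.982).

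Within the initial state the pool with the highest value differed between the genes. Initial pool 3 held the highest value of its group for 8 of the 11 genes, and initial pool 4 for the other 3, which were ALB, TF and A1BG. Initial pool 4 also held the lowest value for VTN, ITIH2 and SERPINA6. Initial pools 1 and 2 were highest for 0 genes.

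**Figure D2:**
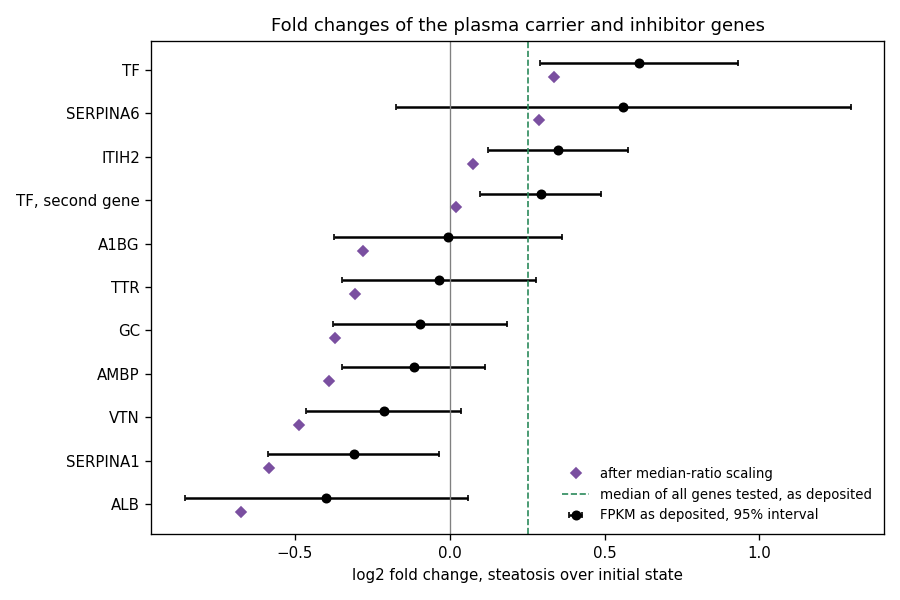
Log2 fold change of steatosis over the initial state (x axis) for each gene, with black points and 95% intervals for FPKM as deposited, purple diamonds for the estimate after median-ratio scaling, and a dashed line at the median of all genes tested (0.25). TF and SERPINA6 lie right of that line by the most, and ALB, SERPINA1 and VTN are the lowest.

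As a share of the FPKM sum, the 10 symbols together held 13.0%, 12.2%, 12.8% and 17.2% in initial pools 1 to 4 and 10.9%, 11.8%, 12.7% and 10.7% in steatosis pools 1 to 4. The means were 13.8% ± 2.27 and 11.5% ± 0.927 (SD, n = 4), and the groups overlapped. ALB made up most of this share, with 8.89%, 8.04%, 8.08% and 13.0% in the initial pools and 6.22%, 7.51%, 8.21% and 6.65% in the steatosis pools. The mean share of ALB was 9.51% ± 2.37 in the initial state and 7.15% ± 0.889 in steatosis (SD, n = 4; two-sided exact permutation p = 0.0857). Of the sum without the 20 most abundant genes outside the set, ALB held 10.3% to 16.6% in the initial pools and 7.58% to 9.96% in the steatosis pools, without overlap (exact permutation p = 0.0286). The genes left out included MT1D, APOC3 and HP, which fell, and FTL, which rose. Leaving them out lowered the ratio of steatosis to initial share for each member, for TTR from 0.99 to 0.93. Of the sum without the members the ALB groups overlapped (exact permutation p = 0.0857). Without ALB the genes together held 4.30% ± 0.279 and 4.40% ± 0.271. Among the members alone, ALB was 63.1% to 75.8% of their FPKM in the initial pools and 57.0% to 64.5% in the steatosis pools.

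The share of TF in the FPKM sum was 0.539% ± 0.0606 in the initial state and 0.831% ± 0.111 in steatosis (SD, n = 4; two-sided exact permutation p = 0.0286). For ITIH2 the shares were 0.171% ± 0.0153 and 0.219% ± 0.0138 with the same p, the smallest that this exact permutation test allows, but of the sum without the 20 genes the groups overlapped (p = 0.0571). SERPINA1 held 0.430% ± 0.0529 and 0.348% ± 0.0311 (SD, n = 4; exact permutation p = 0.0571), and its groups did not overlap as a share of the sum without the 20 genes or without the members (p = 0.0286 for each). A share of FPKM weighs short transcripts more than a share of fragments does. FPKM times the full transcript length served as an approximation of fragments. No allowance for insert size was made, which matters most for short transcripts. Of the sum of this product ALB took 9.94% ± 2.71 in the initial state and 7.42% ± 0.909 in steatosis, with overlap (exact permutation p = 0.0571). TTR, whose transcript has 591 bp, took 0.402% and 0.394%.

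**Figure D3:**
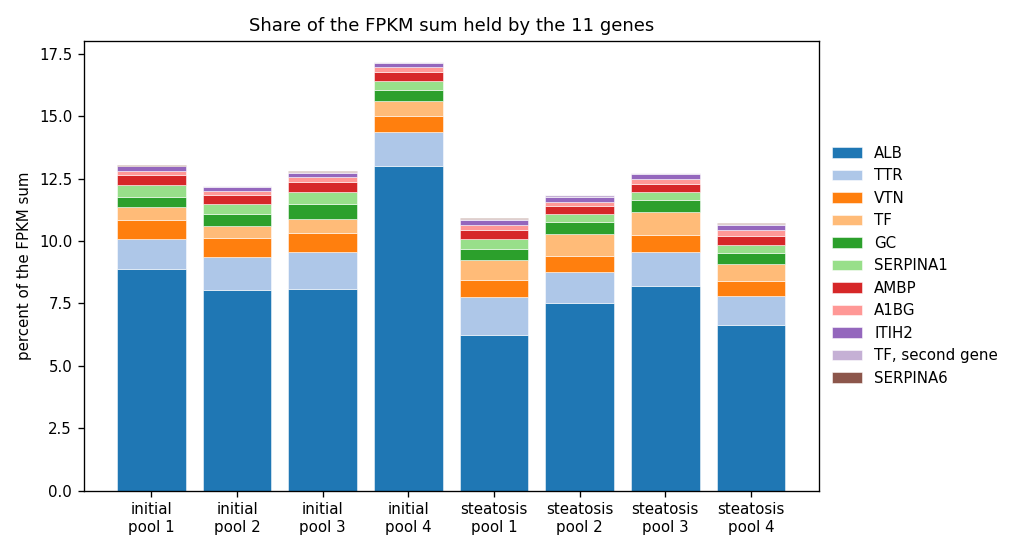
Percent of the FPKM sum (y axis, from 0) held by each of the 11 genes, stacked, in each of the 8 pools. ALB fills most of every bar, and the bar of initial pool 4 (17.2%) stands above the others, which lie between 10.7% and 13.0%.

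Ratios within a library do not depend on the scaling between libraries. A total of 14 were computed after the values were seen, and they are given as a description without a test. TF over ALB was 0.0576, 0.0582, 0.0712 and 0.0462 in initial pools 1 to 4 and 0.126, 0.120, 0.114 and 0.105 in steatosis pools 1 to 4. The means were 0.0583 ± 0.0102 and 0.116 ± 0.00936 (SD, n = 4), and every steatosis pool lay above every initial pool. TF over TTR was 0.351 to 0.444 in the initial pools and 0.511 to 0.722 in the steatosis pools, also without overlap.

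The least variable ratio was that of ITIH2 to AMBP, the heavy chain against the bikunin precursor. It was 0.459, 0.481, 0.460 and 0.446 in initial pools 1 to 4 and 0.642, 0.621, 0.628 and 0.657 in steatosis pools 1 to 4. The means of 0.461 ± 0.0146 and 0.637 ± 0.0159 (SD, n = 4) differ by far more than the spread within each group. ITIH2 over ITIH1 was 0.661 to 0.922 in the initial pools and 1.03 to 1.26 in the steatosis pools. ITIH1 over AMBP overlapped, with 0.483 to 0.728 and 0.509 to 0.610. TTR over RBP4, its carrier partner, overlapped as well, with means of 2.25 ± 0.165 and 2.46 ± 0.334. The ratios of TTR, GC and SERPINA1 to ALB overlapped between groups.

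**Figure D4:**
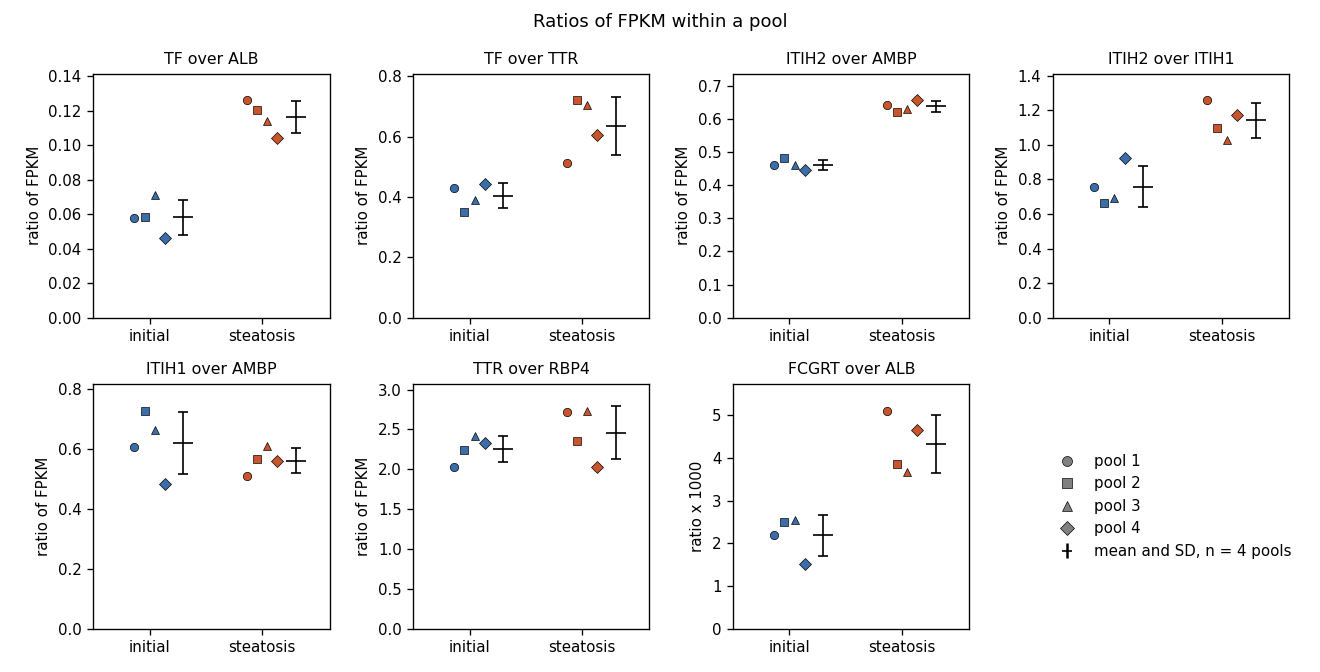
Ratio of FPKM of gene pairs within a pool (y axes, from 0; FCGRT over ALB times 1000) in the initial pools (blue) and steatosis pools (orange), with mean and SD of 4 pools in black. TF over ALB, TF over TTR, ITIH2 over AMBP, ITIH2 over ITIH1 and FCGRT over ALB show no overlap, while ITIH1 over AMBP and TTR over RBP4 overlap.

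Over all genes tested 26.7% rose and 2.28% fell, with a median log2 fold change of 0.25. A list of 28 further plasma carriers and inhibitors had 25 genes tested, of which 2 rose and 5 fell, with a median log2 fold change of -0.13. Those that fell were HPX, APOH, SERPING1, HRG and FETUB. Hemopexin (HPX), which carries heme, was at 2383 to 3072 FPKM in the initial state and 1788 to 2023 FPKM in steatosis and fell by 0.49 on the log2 scale (SE 0.11, adjusted p = 0.0105, limma). HRG, the histidine-rich glycoprotein, was at 1382 to 2498 FPKM and then at 1045 to 1350 FPKM, and it fell by 0.67 (SE 0.18, adjusted p = 0.0214). FETUB, a protease inhibitor of the fetuin family, fell by 0.84 (adjusted p = 0.0170) from 74.6 to 143 FPKM to 47.5 to 76.8 FPKM, with overlap. APOH, a phospholipid-binding plasma protein, fell by 0.40 (adjusted p = 0.0260), and SERPING1, the inhibitor of complement C1, by 0.38 (adjusted p = 0.0485, and 0.0688 when blocked by pool number).

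The rises were AFP, given above, and CPN2, a subunit of plasma carboxypeptidase N, which rose by 0.37 (adjusted p = 0.0416, and 0.0510 with the block) from 38.7 to 49.8 FPKM to 50.0 to 64.5 FPKM. After median-ratio scaling neither AFP (0.47, adjusted p = 0.166) nor CPN2 (0.09, adjusted p = 0.689) gave a call. AHSG, the fetuin that binds calcium phosphate, was at 2302, 2230, 3596 and 2120 FPKM in initial pools 1 to 4 and at 3299, 3051, 3510 and 3425 FPKM in steatosis pools 1 to 4. Its log2 fold change of 0.41 did not pass the test (adjusted p = 0.0937).

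A list of receptors, partners and enzymes that act on these proteins or their cargo had 19 genes tested. Of these 9 rose and 1, HSD11B1, fell, with a median log2 fold change of 0.55, against 26.7%, 2.28% and 0.25 over all genes. FCGRT encodes the receptor that rescues albumin and IgG from breakdown, and it works as a dimer with B2M. FCGRT was at 101, 104, 111 and 107 FPKM in initial pools 1 to 4 and at 170, 148, 160 and 162 FPKM in steatosis pools 1 to 4, and it rose by 0.60 (SE 0.08, adjusted p = 7.2e-04, limma). Multiplied by 1000, the ratio of FCGRT to ALB was 2.19 ± 0.478 in the initial state and 4.32 ± 0.680 in steatosis (SD, n = 4), without overlap.

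B2M is listed as 2 genes. The more abundant one was at 806, 968, 937 and 1620 FPKM in initial pools 1 to 4. In steatosis pools 1 to 4 it was at 2396, 2158, 1974 and 2290 FPKM. It rose by 1.08 (adjusted p = 0.00345, limma), past the limit of differential expression, and by 0.80 (adjusted p = 0.0457) after median-ratio scaling. The other gene rose by 0.98 (adjusted p = 0.00834), under that limit, from 505 to 942 FPKM to 939 to 1427 FPKM, with overlap. After median-ratio scaling it gave no call (adjusted p = 0.0785). Fragments could have been divided between both genes. ITGB3, the beta subunit of an integrin that binds VTN, rose by 2.03 (SE 0.12, adjusted p = 1.0e-05) from 1.49 to 1.70 FPKM to 6.20 to 7.91 FPKM. B2M, FCGRT and ITGB3 are also expressed by other cells, among them macrophages, whose summed markers were higher in the steatosis pools. The part of any cell type in these rises was not tested.

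The receptors for transferrin gave no call on the FPKM as deposited. TFRC, the receptor for iron uptake, was at 11.4 to 18.9 FPKM in the initial state and 14.5 to 21.2 FPKM in steatosis, with a log2 fold change of 0.10 (adjusted p = 0.698). TFR2, by which hepatocytes sense iron-loaded transferrin, was at 129 to 184 FPKM and 144 to 163 FPKM, and its log2 fold change was -0.05 (adjusted p = 0.788), while after median-ratio scaling it fell by 0.32 (adjusted p = 0.0399).

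Of 14 transcription factors of hepatocytes, 3 rose and 1 fell, with a median log2 fold change of 0.19. Over all genes tested 26.7% rose and 2.28% fell, with a median of 0.25. HNF4A and CEBPA are regulators of liver genes. HNF4A was at 48.9 to 59.6 FPKM in the initial state and 48.0 to 57.4 FPKM in steatosis, with a log2 fold change of 0.04 (adjusted p = 0.757). CEBPA had a log2 fold change of 0.51 (adjusted p = 0.0898, and 0.0384 with the block). FOXA2 fell by 1.07 (SE 0.14, adjusted p = 7.4e-04) from 20.7, 13.6, 14.9 and 14.5 FPKM in initial pools 1 to 4 to 8.02, 7.38, 6.47 and 8.02 FPKM in steatosis pools 1 to 4. Among the genes that rose, DBP, a factor of the daily clock, rose by 1.31 from 1.55 to 2.13 FPKM to 3.68 to 6.11 FPKM, and ONECUT2 rose by 1.02 from 1.44 to 2.62 FPKM to 3.76 to 4.49 FPKM.

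Of 27 genes of the secretory pathway, 2 rose and 5 fell, with a median log2 fold change of -0.12, against 26.7%, 2.28% and 0.25 over all genes. The 5 that fell were LMAN1, SEC23A, MCFD2, SAR1B and SRP54. LMAN1 and MCFD2 form a cargo receptor that takes glycoproteins, SERPINA1 among them for LMAN1, out of the endoplasmic reticulum. LMAN1 was at 59.6, 70.5, 70.8 and 66.7 FPKM in initial pools 1 to 4 and at 41.7, 49.6, 46.2 and 39.5 FPKM in steatosis pools 1 to 4, and it fell by 0.60 (SE 0.10, adjusted p = 0.00242, limma). MCFD2 fell by 0.51 (adjusted p = 0.00943) from 81.1 to 102 FPKM to 52.8 to 70.7 FPKM. SEC23A and SAR1B, parts of the coat of transport vesicles, fell by 0.57 (adjusted p = 0.0206) and 0.44 (adjusted p = 0.0140), and SRP54, which targets ribosomes to the membrane, fell by 0.32 (adjusted p = 0.0355, and 0.0529 with the block). The rises were TANGO2 with 0.73 (adjusted p = 6.2e-04) and SSR4, a subunit at the translocation channel, with 0.47 (adjusted p = 0.00197). After median-ratio scaling TANGO2 kept its call (0.46, adjusted p = 0.00507) and SSR4 did not (0.20, adjusted p = 0.196).

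The 10 genes with the highest mean FPKM were ALB, APOC3, ORM1, TTR, HP, MT1D, FTL, FGB, APOE and TPT1. APOC3, an inhibitor of the breakdown of triglycerides, fell by 0.47 (adjusted p = 0.0378). Of the acute phase proteins, which are no members here, ORM1 had a log2 fold change of -0.30 (adjusted p = 0.259), and HP and FGB fell by 0.52 (adjusted p = 0.0245) and 0.44 (adjusted p = 0.0127) on the log2 scale. MT1D, a metallothionein that binds zinc and copper, fell by 3.09 (adjusted p = 9.6e-04), and FTL, the light chain of the iron store ferritin, rose by 0.41 (adjusted p = 0.0262). ALB and TTR, the members in this group of 10, gave no call.

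**Figure D5:**
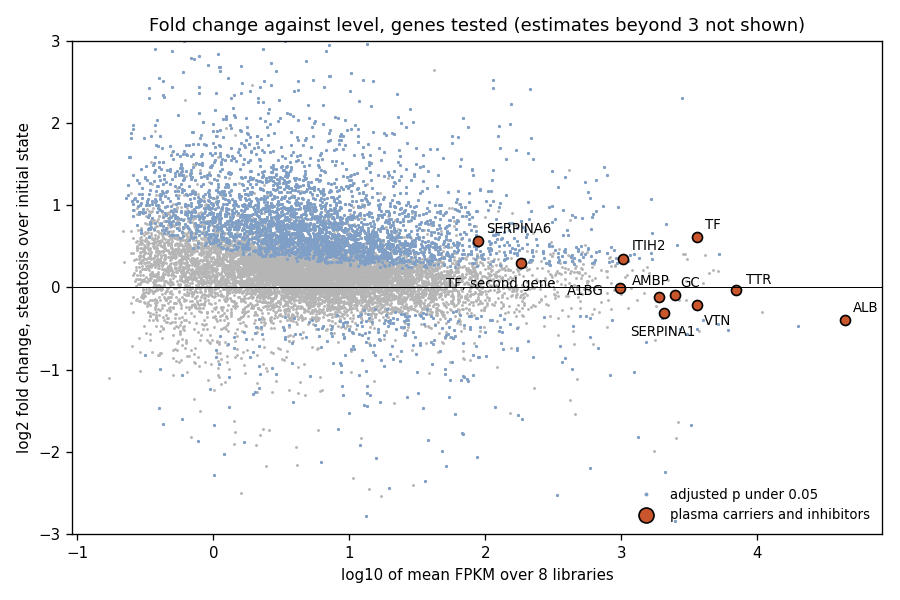
Log2 fold change of steatosis over the initial state (y axis) against the log10 of the mean FPKM over 8 libraries (x axis) for the 13175 genes tested, with genes at an adjusted p under 0.05 in blue and the 11 members in orange; estimates beyond 3 lie outside the plot. ALB is the rightmost point, and the members lie at the abundant end with estimates between -0.40 and 0.61.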

How the data were processed

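Per the labels and the paper's methods, the authors filtered 100 bp paired-end reads, mapped them with HISAT2 2.0.4 to Sus scrofa 11.1, added new transcripts from StringTie, and estimated expression with Bowtie2 2.2.5 and RSEM 1.2.12. The authors deposited FPKM for 17778 known genes and 325 new transcripts. FPKM fixes each library to its own total, so very abundant genes move all others. From 4 deposited Poisson comparisons of single pools (fold changes and p-values by the authors) only transcript lengths were used in the results. Their repeated FPKM columns served as a check, and values above 0 were the same as those used here. Read counts were not analysed here. Relative depth was estimated from the step between low FPKM values of genes of 400 to 600 bp, with 15 to 27 genes per library. Only values within a fixed window were used, which limits how far the libraries could differ in this estimate.

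The 13175 genes that reached 0.3 FPKM in 4 or more of the 8 libraries entered a limma fit (version 3.58.1, R 4.3.3) of log2(FPKM + 0.1) on the group alone, with variances moderated along the mean and Benjamini-Hochberg adjustment over all genes. In a self-test most changes of the smallest size tried were missed. Far fewer genes were changed there than were called in these data, so its share of misses does not carry over. The absence of a call does not show that a gene was unchanged. Means and shares were compared by two-sided exact permutation tests (scipy 1.17.1). Their p-values were not adjusted for the number of genes or of measures. The smallest, 0.0286, arises whenever 4 pools against 4 do not overlap, as for 32.1% of all genes tested. Coordinates are those of RefSeq on Sscrofa11.1, the build of the files, for the same gene IDs.

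Libraries of the same pool number were treated as pairs in a blocked alternative, since the groups are the same animals and deviations from the group means correlated at 0.16, 0.35, 0.32 and 0.25 between pools 1, 2, 3 and 4. No source states that these pools hold the same pigs. Other scalings, filters and pseudocounts and leaving out each library were also tried.

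The members and lists were chosen with earlier results of these data known. Named are all members, in each other list the 2 largest rises and falls that passed the test, 15 receptors, relatives and factors whatever their values, and the 10 most abundant genes. A few genes under this rule are not reported here. MCFD2, SAR1B, SRP54, ONECUT2, APOH, HPX, SERPING1, PCK1, FBP1, GPNMB, SPP1, NKG7, HBB and SERPIND1 were named after their values were seen, to complete small counts or to show what 1 gene carries.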

Additional observations from a re-analysis of the deposited data

Results flagged for a closer look

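In groups of 4 pools, 52 sets of values of members, shares and ratios were screened for 1 pool apart from the rest by Dixon's ratio, and 4 were found, where chance gives about 1 in 20. ALB in initial pool 4 was at 71003 FPKM, and the other initial pools were at 41268 to 45743 FPKM. The share of the FPKM sum held by the 10 symbols in the same pool was 17.2%, and 12.2% to 13.0% in the others, so both rest on 1 library and largely on 1 gene. The ratio of TTR to ALB in steatosis pool 1 was 0.247, with 0.162 to 0.173 in the other steatosis pools. The ratio of SERPINA1 to TTR in steatosis pool 4 was 0.299, with 0.251 to 0.258 in the others.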

How the results depend on the processing

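Counts of calls depended most on the scaling between libraries, also over all 13175 genes tested. There 1532 rose and 1283 fell with the median ratio, and 1679 and 1019 with the upper quartile. With the median ratio and the replicate block the numbers were 1510 and 1094, and with the block alone 3383 and 343. With no filter 3258 of 18103 genes rose and 268 fell. With the median ratio, the upper quartile, and the median ratio with the replicate block, 0 members rose and 2 fell, while the numbers of rises and falls were 5 and 2 (1 with the upper quartile or with the block) for receptors and partners. Under the same 3 settings the other carriers had 0 rises, the receptors 1 gene differentially expressed higher, the transcription factors 2 falls and the secretory pathway 1 rise. Falls of the other carriers were 10 with the median ratio with or without the block, where 1 was differentially expressed lower with the block, and 3 with no filter. Falls of the secretory pathway were 14, 13 and 11 under the 3 settings. Rises of the other carriers were 1 with no filter, with no trend, with the stricter filter and with the replicate block, under which AFP and CPN2 lost their call and SERPIND1 gained one, and SERPING1, SRP54 and FBP1 (adjusted p = 0.0501) lost theirs. The block changed no call of a member in the fit across genes. In the paired test of shares the block gave TF, ITIH2 and the second TF gene log2 ratios of 0.62, 0.36 and 0.30, where 4 pairs are too few for an exact test to pass. Differentially expressed lower transcription factors were 0 with a pseudocount of 1. With no filter the adjusted p of ITIH2 was 0.0584, and with no trend that of the second TF gene was 0.0587.

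Initial pools 1 and 4 were both left out in an alternative chosen after seeing the data. There 1 member rose, 0 other carriers rose and 0 transcription factors were differentially expressed lower, while 2466 of all genes tested rose and 350 fell. With each single library left out, 2324 to 3389 of all genes tested rose and 173 to 395 fell. With each library left out in turn, 1 to 3 members rose, and 1 alone (TF) when any library but initial pool 3 or steatosis pool 3 was missing; 0 to 2 other carriers rose, 3 to 5 fell, with 3 without initial pool 3 or steatosis pool 2, 3 or 4, and 0 to 1 were differentially expressed lower; 1 to 3 receptors were differentially expressed higher; 0 to 1 transcription factors were differentially expressed lower, with 0 without initial pool 1; and 3 to 6 secretory genes fell. TF kept its call without each of the 8 libraries. A permutation test of 3 pools against 4 cannot go below 0.0571, so the exact tests of TF and ITIH2 could not pass there.

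Estimates near 0 changed sign. Over the 8 omissions the log2 fold change ran from -0.12 to 0.0292 for TTR, from -0.17 to 0.0072 for GC (-0.26 without initial pools 1 and 4) and from -0.13 to 0.10 for A1BG. The log2 ratio of mean FPKM ran from -0.12 to 0.0301, from -0.18 to 0.0045 and from -0.14 to 0.10, and that of the shares from -0.10 to 0.0399, from -0.16 to 0.0026 and from -0.13 to 0.11. A1BG was also at 0.0039 with a common FPKM sum, at 0.10 without initial pools 1 and 4, and at -0.0609 and -0.0265 as a share of the sum without the 20 top genes or without the members. The FPKM files hold no counts here, so depth sets no interval for any value.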
